A study of Mus musculus with 20 samples.

Results

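Sonic hedgehog signalling was followed through 10 genes: the ligand Shh, its binding proteins Ptch1, Hhip, Boc, Cdon and Gas1, the membrane transducer Smo, and the transcription factors Gli1, Gli2 and Gli3. They were chosen by name, as 10 of the 22342 protein-coding genes annotated on mouse chromosomes 1 to 19 and X (build mm9, NCBIM37). Around each gene, the bases covered by called regions of 4 histone marks were measured in the medial ganglionic eminence (MGE) at embryonic day 13.5. The wild-type and the Nkx2-1cKO libraries came from C57BL/6 embryos, and the latter carry a conditional knockout of Nkx2-1 and are called the mutant here. The labels name neither the Cre driver nor the promoter behind the knockout, and do not say whether embryos were pooled. Peaks of the homeodomain factors NKX2-1 and LHX6 came from dissociated wild-type CD-1 basal ganglia of the same age, so the factor and mark libraries differ in strain and in dissection. Peak lists of 10 of the 20 libraries entered the comparison, 1 library for each antibody and genotype. No value therefore has a replicate error, no test between genotypes was possible, and each difference describes these libraries.

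Sonic hedgehog is a secreted morphogen. It binds Patched 1, which then stops holding back Smoothened, and Smoothened lets the Gli factors reach the nucleus as activators. Boc, Cdon and Gas1 are co-receptors that help the ligand bind, Hhip is a membrane protein that sequesters it, and Ptch1, Gli1 and Hhip are themselves targets of the pathway. In the ventral telencephalon the ligand induces Nkx2-1, and Nkx2-1 in turn is needed for Shh in the MGE. Among the marks, H3K4me3 sits at promoters, H3K4me1 mainly at enhancers, H3K27ac at either where it is active, and H3K27me3 is laid down by Polycomb repressors.

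The libraries held between 26.8 and 89.1 M tags (M, mega) after the authors' peak caller removed duplicates. The H3K4me3 libraries kept the fewest, 28.8 M in wild type and 26.8 M in the mutant. Their duplicates were 28.3% and 34.0%, against at most 6.96% in the others, and their controls kept 63.2 and 39.0 M tags. Mutant lists covered more of the genome than wild-type lists, with ratios of 1.12 (H3K27ac), 1.10 (H3K4me1), 1.22 (H3K4me3) and 1.32 (H3K27me3). A gene was called higher or lower when its covered length differed at least 1.5-fold and by at least 1 kb, among genes with at least 1 kb in either genotype. The main window runs from 10 kb before the first to 10 kb after the last transcription start site (TSS) of a gene, and is called the TSS window. A wider window holds the gene body with 50 kb on each side.

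Markers of the dissected tissue and of its neighbours were read in the same way. Of 11 MGE markers, H3K27ac was present at all 11 in both genotypes, and their TSS windows together held 159 kb (wild type) and 131 kb (mutant). Lhx6 (12.7 to 0.781 kb) and Lhx8 (9.98 to 1.11 kb), both MGE transcription factors, were called lower. Nkx2-1 itself held 12.6 and 9.56 kb, which does not check the deletion, since the deleted part is not given in the sources used here. Of 9 markers of the neighbouring lateral or caudal eminences, 5 of the 8 tested were called higher (Ebf1, Isl1, Meis2, Foxp1 and Zfp503). The sum of the class went from 81.0 to 139 kb. Gsx2, Nr2f2 and Prox1 were not called, Prox1 with less in the mutant (4.38 and 3.30 kb), and Ikzf1 was at 0 in both genotypes. H3K27me3 was called higher at Prox1 (10.3 to 15.6 kb) and lower at Meis2 (14.4 to 7.84 kb). The markers and the hedgehog genes below were read in the same libraries. Whether the shifts of the called markers have a part in the values of the hedgehog genes was not tested. In tissue of mixed cells, fewer cells of a type and less of a mark per cell cannot be told apart. Pallial markers summed to 1.68 and 2.69 kb of H3K27ac, with Emx1 and Eomes at 0 in both genotypes and Tbr1 called higher, from 0.564 to 1.58 kb. Hypothalamic markers summed to 0 and 0.320 kb. Among blood, endothelial and microglial markers, Cldn5, Gata1, Hbb-bh1, Cx3cr1 and Csf1r were at 0 in both genotypes, Pecam1 held 2.03 and 2.92 kb and Aif1 4.39 and 4.32 kb.

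NKX2-1 peaks lay in the wide windows of 8 of the 10 genes, 18 peaks in all, and in the TSS windows of Ptch1, Gli2 and Gas1. Across all protein-coding genes, 31.5% had an NKX2-1 peak in the wide window and 11.9% in the TSS window. The wide windows of the 10 genes are longer (103 to 367 kb, median 169 kb) than those of all genes (median 115 kb), and held 9.71 NKX2-1 peaks per Mb beside 3.66 over all genes. Of the genes whose H3K27ac was called, the 4 with the strongest peaks by −log10 p are shown, each by the 200 bases of its strongest peak around the summit, on the plus strand of mm9, because these are the places where the factor deleted in the mutant was found in wild type at genes whose marks differed. Capitals mark the letters of a homeodomain core on either strand, CACTTGA or CACTCAA for the NK2 class and TAATTA or TAATGA for the LIM class.
Gli2, chr1:120879069-120879268: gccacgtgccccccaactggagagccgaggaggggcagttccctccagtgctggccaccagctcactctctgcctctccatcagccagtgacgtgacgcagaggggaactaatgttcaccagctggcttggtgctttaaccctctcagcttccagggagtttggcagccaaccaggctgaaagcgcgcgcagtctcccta
Gli3, chr13:15806703-15806902: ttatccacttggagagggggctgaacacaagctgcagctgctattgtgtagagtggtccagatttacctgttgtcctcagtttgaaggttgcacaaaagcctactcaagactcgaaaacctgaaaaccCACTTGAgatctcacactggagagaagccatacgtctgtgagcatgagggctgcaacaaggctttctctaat
Cdon, chr9:35207566-35207765: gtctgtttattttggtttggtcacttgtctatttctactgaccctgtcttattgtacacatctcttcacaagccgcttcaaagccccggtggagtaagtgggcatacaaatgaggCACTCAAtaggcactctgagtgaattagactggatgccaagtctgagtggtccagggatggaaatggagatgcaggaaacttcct
Gas1, chr13:60275059-60275258: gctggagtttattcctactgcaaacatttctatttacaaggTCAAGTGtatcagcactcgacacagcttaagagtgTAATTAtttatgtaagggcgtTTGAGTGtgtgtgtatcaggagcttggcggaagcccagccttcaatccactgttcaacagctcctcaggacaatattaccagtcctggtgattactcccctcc
The Gas1 window held 2 NK2 cores, both read on the minus strand, and 1 LIM core between them. The Gli3 and Cdon windows held 1 NK2 core each, and the Gli2 window, at the strongest peak of the 18, held neither kind of core. An NK2 core stood in 21.4% and a LIM core in 25.7% of all 5683 NKX2-1 summit windows of this length, so the cores are a description of these 4 sequences. The core of Gli binding sites, CCACCCA, was in none of the 4 and in 4.86% of all of them. The Gli3 sequence overlaps 120 bases of coding exon, and the Gli2 sequence 97 bases annotated as coding in a shorter Gli2 transcript. The Cdon and Gas1 sequences overlap no exon.

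In the TSS windows, H3K27ac was called higher in the mutant at 5 of the 10 genes (Gli2, Gli3, Boc, Cdon and Gas1) and lower at Shh. Over all 12602 genes tested, 4.28% were called higher and 1.75% lower. H3K27me3 was called lower at 2 of the 9 genes tested, Gli2 and Boc, beside 1.05% of 4952 genes, and higher at 3, Ptch1, Gli3 and Hhip, beside 18.2%. H3K4me1 was called higher at Boc and Cdon (2.73% of all genes) and H3K4me3 at Boc and Gas1 (2.99%). No hedgehog gene was called lower in H3K4me1 (1.63% of all genes) or H3K4me3 (0.142%). With the lists trimmed to equal covered length in both genotypes, H3K27me3 was higher at Hhip alone and H3K4me3 at 0 genes. The shares of all genes were not computed for the trimmed lists. The median log2 ratio of mutant to wild type, with 100 bases added to each length, was 0.56 for H3K27ac over the 10 genes and 0.07 over all genes. For H3K4me1 these medians were 0.28 and 0.00, and for H3K4me3 0.21 and 0.11. For H3K27me3 the median was 0.11, beside 0.26 over all genes, while the summed length went the other way, from 67.9 to 49.2 kb, through Gli2 and Boc. In the wide windows H3K27ac was called higher at Gli2, Gli3, Boc and Gas1 (7.81% of all genes) and lower at Shh (2.32%). H3K27me3 was called lower at Gli2, Boc and Cdon (1.43%) and higher at Gli3 and Hhip (21.6%). H3K4me1 was called higher at Gli3 and Boc (4.15%) and H3K4me3 at Gli2, Gli3, Boc and Gas1 (5.65%), with none lower in either mark (1.41% and 0.183% of all genes).

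**Figure D1:**
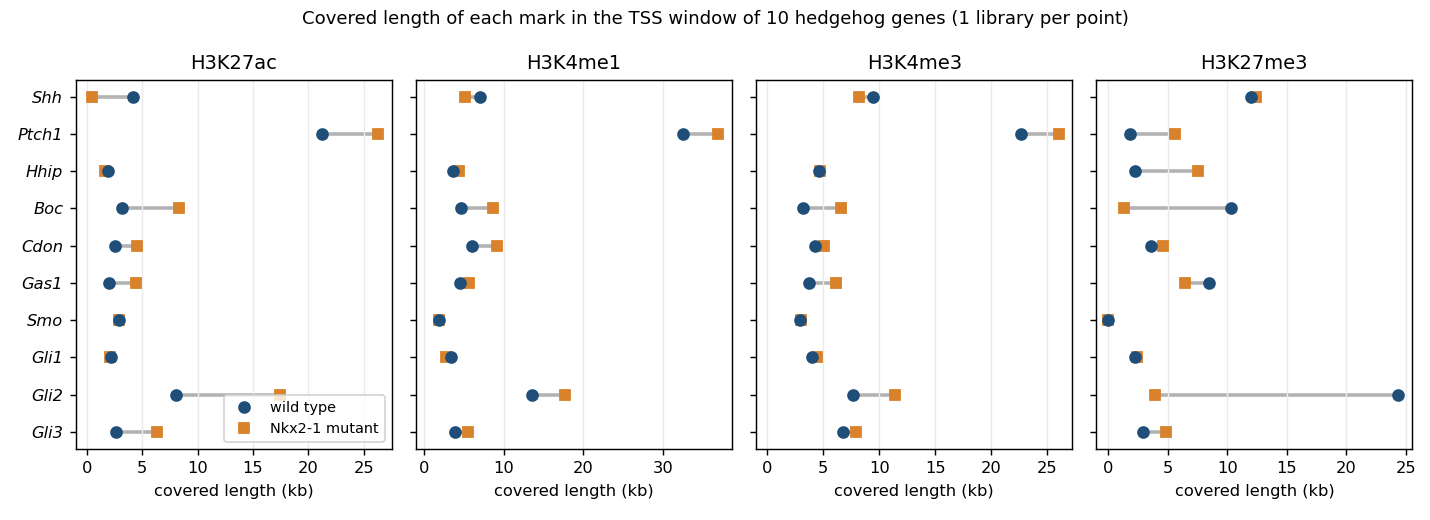
Covered length in kb (x axes) of H3K27ac, H3K4me1, H3K4me3 and H3K27me3 in the TSS window of each of the 10 genes (rows), with a circle for the wild-type library, a square for the mutant library and a grey line joining them. Gli2 shows the widest gap in H3K27me3, from 24.3 to 3.96 kb, and H3K27ac falls at Shh from 4.20 to 0.498 kb.

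Shh, on the minus strand of chromosome 5 (28783355 to 28793641), was the 1 gene of the 10 with a call of lower H3K27ac. Its TSS window held 4.20 kb of H3K27ac in wild type, in 7 regions, and 0.498 kb in the mutant, in 1 region. The region that was left lay over the TSS, and the other 6, beginning 0.95 to 8.50 kb into the gene, had no mutant counterpart. The length fell by 3.705 kb, the 53rd largest of 12602 genes. With regions of −log10 p of at least 10 alone, the length fell by 1.35 kb, still a call. The other marks differed less. H3K27me3 covered 12.0 kb in wild type against 12.4 kb in the mutant, H3K4me3 9.40 and 8.19 kb, and H3K4me1 7.06 and 5.15 kb. No base of wild-type H3K27me3 at Shh was without the mark in the mutant. All of the H3K27ac in both genotypes lay on bases that were also in an H3K27me3 region. H3K4me3 and H3K27me3 regions overlapped over 9.36 kb in wild type against 8.19 kb in the mutant. The lists come from separate libraries of mixed cells, so an overlap does not place both marks in the same cells. Within 1 kb of the TSS, H3K27ac covered 47.8% of bases in wild type against 24.9% in the mutant, and H3K27me3 100% in both. No NKX2-1 or LHX6 peak lay within 50 kb of the gene. Antisense noncoding transcripts annotated over Shh share these bases, and the lists carry no strand. Farther upstream, between the window and the gene Rnf32, wild type had 20 H3K27ac regions and the mutant 8. That stretch lies outside both windows and was chosen after its values were seen. Of its 17 wild-type regions without H3K4me3 in either genotype, 13 had no mutant counterpart (76.5%), beside 40.3% of all regions of that kind.

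**Figure D2:**
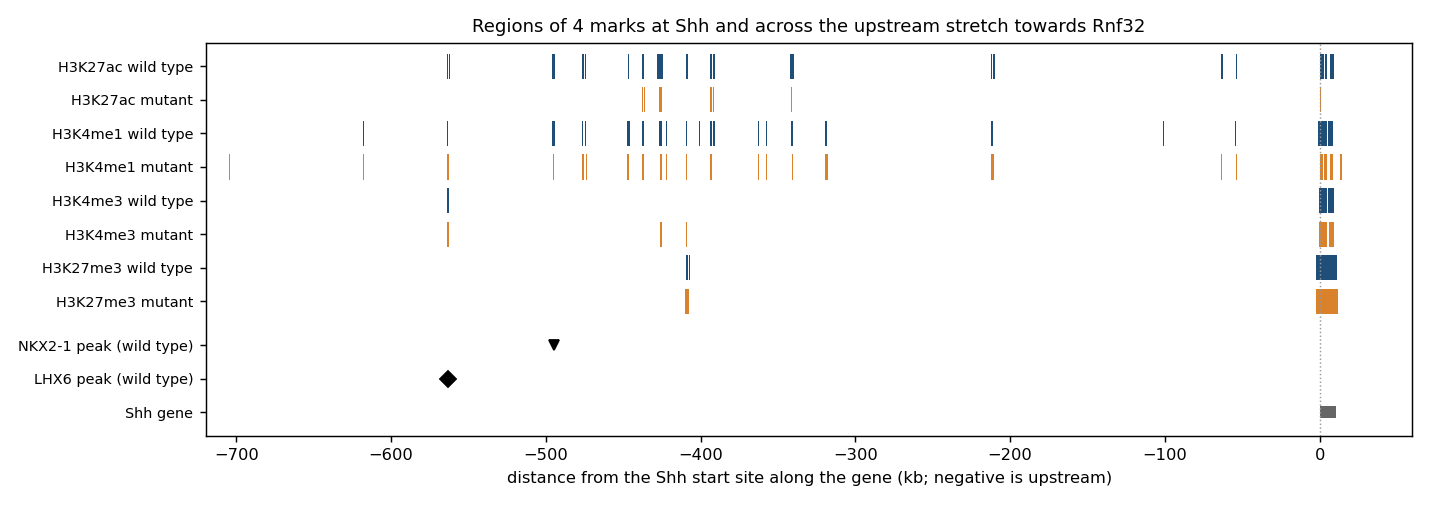
Regions of the 4 marks in wild type (blue) and the mutant (orange) at Shh and across the 669 kb upstream, with the NKX2-1 peak as a triangle, the LHX6 peak as a diamond and the gene as a grey bar; the x axis is the distance in kb from the Shh TSS, and the narrowest regions are widened to stay visible. Upstream H3K27ac went from 20 regions to 8, while H3K4me1 had 21 in both genotypes, in a stretch chosen after its values were seen.

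Ptch1, the receptor and a target of the pathway, held the longest covered length of each active mark in the TSS windows of the 10 genes. Its TSS window on chromosome 13 spans 4 TSSs and is long (78.9 kb), and lengths are not scaled to the window. As a share of the TSS window, Ptch1 was highest in H3K4me1 in both genotypes and in wild-type H3K27ac. Boc was higher in mutant H3K27ac (41.6% against 33.3%), and Shh in wild-type H3K4me3 (47.0% against 28.7%). H3K27ac covered 21.2 kb in wild type against 26.3 kb in the mutant, H3K4me1 32.6 and 37.0 kb, and H3K4me3 22.6 and 26.1 kb, all under the 1.5-fold limit. The rise of 5.04 kb in H3K27ac was nevertheless the 105th largest of 12602 genes. The longest H3K27ac region lay over 2 TSSs inside the gene and was 7.41 kb long in wild type against 8.02 kb in the mutant. H3K27me3 was called higher, from 1.86 to 5.62 kb, in 3 and 9 regions. Ptch1 held 4 intronic NKX2-1 peaks, between 9.58 and 18.8 kb from the nearest TSS. All 4 lay in H3K4me1 regions of both genotypes, and 3 of them in H3K27ac regions of both. The strongest, 9.58 kb from a TSS, had a fold of ChIP over control, as the authors computed it, of 9.04, at or above 95.5% of the list. The fifth NKX2-1 peak of the wide window lay 0.24 kb from a TSS of the neighbour Fancc.

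Hhip, the membrane protein that sequesters the ligand, differed in H3K27me3. Its TSS window on chromosome 8 held 2.27 kb in wild type, in 1 region, and 7.55 kb in the mutant, in 9 regions. Of those 9, 8 had no wild-type counterpart. They lay on both sides of the TSS, the farthest beginning 8.09 kb into the gene. The share of bases within 1 kb of the TSS under H3K27me3 was 40.6% in wild type against 70.4% in the mutant. H3K27ac held 1.94 and 1.60 kb, H3K4me3 4.64 and 4.73 kb and H3K4me1 3.67 and 4.35 kb, none of them called. Since 18.2% of tested genes were called higher in H3K27me3, the call at Hhip is read against that share. No factor peak lay in its window of 192 kb.

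Boc, a co-receptor of the immunoglobulin superfamily, was called in all 4 marks. In the TSS window on chromosome 16, H3K27ac went from 3.15 to 8.33 kb, H3K4me1 from 4.69 to 8.68 kb, and the lengths of H3K4me3 were 3.15 and 6.59 kb. H3K27me3 went from 10.3 to 1.36 kb, the 5th largest fall of 4952 genes. In the wide window the differences were larger, with 11.5 and 32.6 kb of H3K27ac and 24.3 and 3.52 kb of H3K27me3. Of the wild-type H3K27me3 there, 19.1 kb lay in the 50 kb upstream of the gene, where 3.52 kb remained in the mutant. The gene body held 4.15 kb in wild type against 0 in the mutant. The gain in H3K27ac lay mainly in the gene body, from 11.2 to 30.2 kb. There the mutant had 1 region of 11.6 kb (44526153 to 44537722), where the wild type had 5 separate regions of 0.499 to 2.65 kb. Its fold was at or above 99.96% of the mutant list. Within 1 kb of the TSSs, H3K27me3 covered 93.2% of bases in wild type against 17.3% in the mutant, and H3K27ac 52.5% and 96.9%. There were 2 NKX2-1 peaks upstream of Boc, with folds of 5.85 and 3.73. The stronger, at 44579475 to 44579810, lay in an H3K27me3 region of wild type only and in an H3K27ac region of the mutant only.

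**Figure D3:**
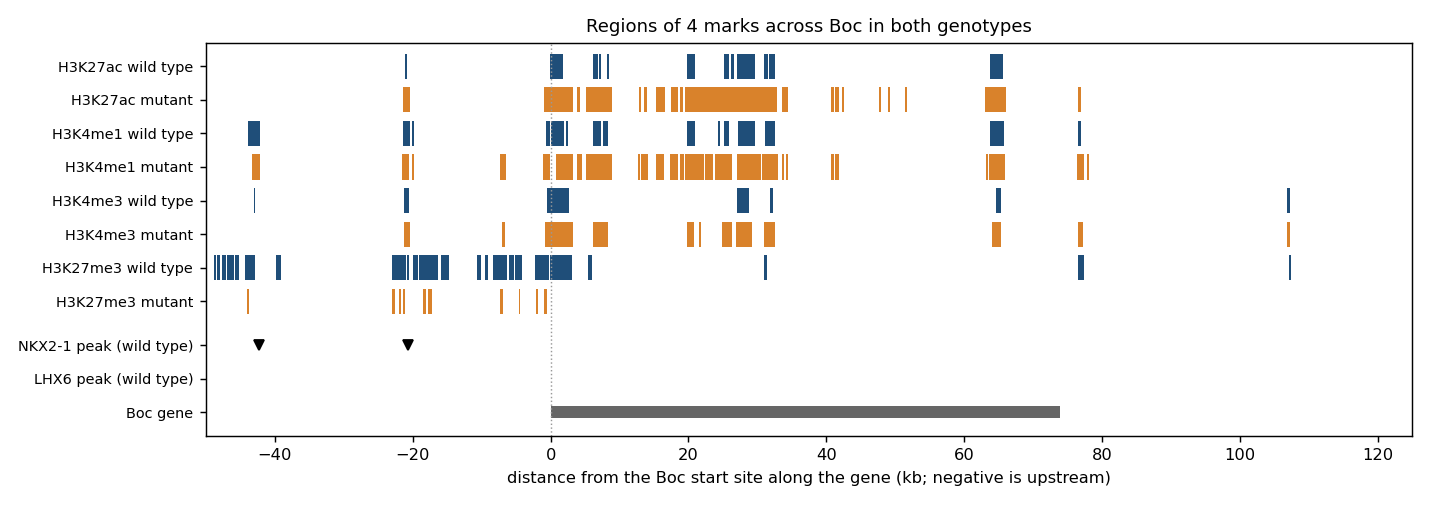
Regions of the 4 marks in wild type (blue) and the mutant (orange) along Boc, with the NKX2-1 peaks as triangles and the gene as a grey bar; the x axis is the distance in kb from the Boc TSS, and the narrowest regions are widened to stay visible. H3K27me3 upstream of the TSS went from 19.1 to 3.52 kb and H3K27ac in the gene from 11.2 to 30.2 kb.

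Cdon, the co-receptor most like Boc in structure, was called higher in H3K27ac, from 2.52 to 4.53 kb, and in H3K4me1, from 6.06 to 9.13 kb, in a TSS window on chromosome 9 that spans 5 TSSs. In the wide window the H3K27ac lengths were 6.23 and 9.30 kb, under the limit. H3K27me3 in the wide window was called lower there, from 12.2 to 8.11 kb, although the TSS window held 3.57 and 4.63 kb. With regions of −log10 p of at least 10 alone, the TSS window was called the other way, with 2.22 kb more in the mutant. Of 16 wild-type H3K27me3 regions, 7 had no mutant counterpart. The longest of these 7, of 2.34 kb, lay in the gene 26.1 kb from the nearest TSS. Cdon had 3 NKX2-1 peaks, 2 of them upstream and 1 in an intron. All 3 were in H3K4me1 regions of both genotypes, and 1 in H3K27ac regions of both. The strongest, which holds the NK2 core printed above, lay in H3K27me3 regions of both genotypes.

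Gas1, a co-receptor anchored in the membrane by a lipid, was called higher in H3K27ac, from 1.98 to 4.46 kb, and in H3K4me3, with 3.71 and 6.17 kb. The H3K27ac region over its TSSs on chromosome 13 was 1.70 kb long in wild type against 3.58 kb in the mutant. H3K27me3 in the TSS window was 8.48 and 6.49 kb, and 27.7 and 21.4 kb in the wide window, neither of them called. Almost all of it lay in the 50 kb downstream of this short gene, with 26.0 kb in wild type against 21.2 kb in the mutant. None lay within 1 kb of the TSSs. The gene body, of 2.96 kb, held 1.70 kb of H3K27me3 in wild type against 0.277 kb in the mutant. With 5 kb around the TSSs, H3K27me3 was called lower, from 3.84 to 2.36 kb. Both NKX2-1 peaks of Gas1 lay beyond its end, 3.47 and 6.14 kb from the TSS, in H3K27me3 and H3K4me1 regions of both genotypes. H3K4me3 was found over both in the mutant only, and H3K27ac over the farther one in the mutant only.

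Smo, the transducer, was alike in both lists within its TSS window on chromosome 6. H3K27ac held 2.87 kb in wild type against 2.89 kb in the mutant, H3K4me1 1.88 and 1.91 kb, H3K4me3 2.96 and 2.99 kb, and H3K27me3 0 in both. The only LHX6 peak in any of the 10 wide windows lay in a Smo intron, 12.8 kb from the TSS. An NKX2-1 peak covered nearly the same bases, 29697944 to 29699119, and no region of any mark lay over the pair in either genotype. Of all genes, 4.06% had an LHX6 peak in the wide window.

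Gli1, the activator that serves as the usual readout of the pathway, was not called in any mark. Its TSS window on chromosome 10 held 2.18 and 2.13 kb of H3K27ac, 3.41 and 2.72 kb of H3K4me1, 4.01 and 4.42 kb of H3K4me3, and 2.24 and 2.42 kb of H3K27me3. H3K27me3 covered 70.8% of the bases within 1 kb of its TSSs in wild type against 74.7% in the mutant. The wide window holds TSSs of 7 other genes, and its 2 NKX2-1 peaks lay 0.14 kb from a Ddit3 TSS and 0.04 kb from a Mars TSS.

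Gli2 is the main activator of the family in the mouse neural tube. In covered kb it lost more H3K27me3 than any other gene tested, as the lists were deposited. Its TSS window on chromosome 1 held 24.3 kb in wild type against 3.96 kb in the mutant, rank 1 of 4952 falls. The wide window held 43.0 and 3.96 kb, rank 1 of 9992. Both ranks are by kb and are not scaled to the window. The TSS window, of 91.0 kb, is the longest of the 10 genes. The wide window is 319 kb long, beside a median of 115 kb over all genes. As a share of the TSS window, H3K27me3 went from 26.7% to 4.35% at Gli2 and from 51.5% to 6.78% at Boc. Of the 26 wild-type regions at Gli2, 24 had no mutant counterpart, and the mutant had none of its own. H3K27ac went the other way, from 8.08 to 17.5 kb in the TSS window and from 10.9 to 30.0 kb in the wide window, where 17 of 25 mutant regions had no wild-type counterpart. H3K4me1 held 13.5 and 17.7 kb and H3K4me3 7.65 and 11.4 kb in the TSS window, under the limit, and H3K4me3 was called higher in the wide window, from 9.17 to 13.9 kb. The wild-type H3K27me3 formed 3 blocks, at the promoter, around a TSS inside the gene and farther towards its end, with a lone region of 0.988 kb upstream. The mutant kept regions at the promoter and just upstream of it. The longest wild-type region, of 8.08 kb (120807404 to 120815482), lay in the block towards the end of the gene. There the mutant had an H3K27ac region of 4.89 kb (120806210 to 120811095), where the wild type had 3 regions of 0.366 to 0.570 kb. Within 1 kb of the outer TSSs, H3K27ac covered 58.0% of bases in wild type against 100% in the mutant, and H3K27me3 82.3% and 53.7%. At the inner TSS H3K27me3 covered 33.5% in wild type against 0 in the mutant. The promoter is shown for this reason, as the 250 bases upstream of the outermost TSS on the minus strand.
Gli2, chr1:120950197-120950446: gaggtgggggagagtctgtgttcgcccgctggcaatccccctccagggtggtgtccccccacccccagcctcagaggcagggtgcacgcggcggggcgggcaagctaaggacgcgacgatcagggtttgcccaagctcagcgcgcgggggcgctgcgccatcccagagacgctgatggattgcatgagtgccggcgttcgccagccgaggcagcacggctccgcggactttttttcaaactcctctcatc
Its ratio of observed to expected CpG was 0.780, beside a median of 0.505 over the promoters of all genes, and it holds none of the 3 kinds of core. An NK2 core was found in 5.27%, a LIM core in 11.8% and a Gli core in 8.03% of those promoters. The strongest NKX2-1 peak of the 18, with a fold of 10.2 at or above 97.2% of the list, is the Gli2 sequence printed above. Its summit lay 4 bases upstream of the inner TSS, in the gap between wild-type H3K27me3 regions that ended at 120878634 and began at 120879965. The peak overlapped H3K27ac, H3K4me1 and H3K4me3 regions of both genotypes.

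**Figure D4:**
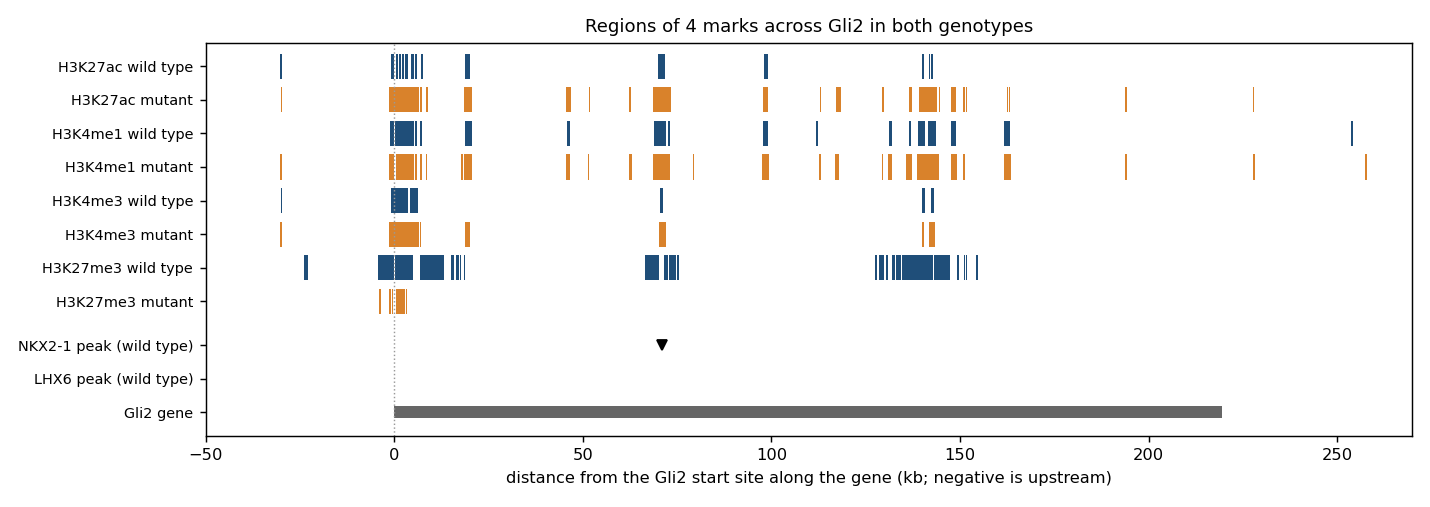
Regions of the 4 marks in wild type (blue) and the mutant (orange) along Gli2, with the NKX2-1 peak as a triangle and the gene as a grey bar; the x axis is the distance in kb from the outermost Gli2 TSS, and the narrowest regions are widened to stay visible. H3K27me3 went from 26 regions in 3 blocks to 5 regions around the promoter, and H3K27ac from 17 to 25 regions.

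Gli3, which acts mostly as a repressor where the ligand is absent, was called higher in H3K27ac (4.28% of all genes) and in H3K27me3 (18.2%). The share of all genes with both calls was not counted. Its H3K27me3 call did not hold with lists of equal covered length, at 2-fold, or with a difference of at least 2 kb. The TSS window on chromosome 13 held 2.66 and 6.28 kb of H3K27ac and 2.92 and 4.82 kb of H3K27me3. In the wide window H3K27ac went from 13.5 to 26.96 kb, with 16 of 27 mutant regions new. H3K4me1 went from 26.7 to 48.1 kb, the 13th largest rise of 17882 genes, while H3K4me3 held 12.7 and 20.2 kb and was called too. That rank is by kb in a window of 367 kb, beside a median of 115 kb over all genes. Only 5.82% of the wild-type H3K27me3 bases at Gli3 were without the mark in the mutant. In an intron the mutant had 1 H3K27ac region of 5.12 kb (15633063 to 15638184), where the wild type had 4 regions of 0.581 to 1.37 kb, and an NKX2-1 peak lay within it, 80.3 kb from the nearest TSS. The second NKX2-1 peak, with a fold of 8.05, lay over an exon 251 kb from the TSS and is the Gli3 sequence printed above. It lay in H3K27ac and H3K4me1 regions of both genotypes and in an H3K4me3 region of the mutant only.

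Set side by side, Gli2 and Boc were the 2 genes of the 10 with higher H3K27ac and lower H3K27me3 calls in the same window. Over all genes tested in both marks, 20 of 3021 (0.662%) had this pair of calls in the TSS window and 48 of 9128 (0.526%) in the wide window. Of the wild-type H3K27me3 bases in the wide window, 90.8% at Gli2 and 85.5% at Boc were without the mark in the mutant. The share was 55.9% at Cdon, 35.6% at Gas1, 35.3% at Smo, 33.7% at Ptch1, 8.83% at Gli1, 5.82% at Gli3 and 0 at Shh and Hhip. It rests on few bases at Smo (1.30 kb in wild type) and Ptch1 (5.91 kb). The share over chromosomes 1 to 19 and X was 10.2%. New H3K27ac covered 24.5% of the lost bases at Gli2 and 15.3% at Boc, beside 5.49% over those chromosomes, so most lost bases took on no H3K27ac region. Every base counted here depends on a peak call, and signal just under the authors' limit is not seen.

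**Figure D5:**
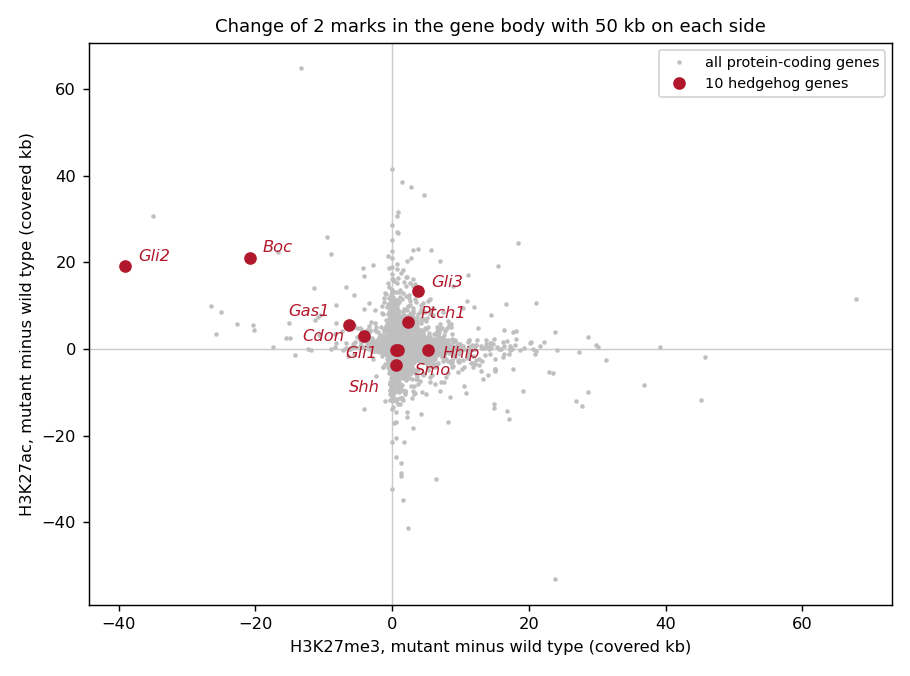
Mutant minus wild-type covered length in kb of H3K27me3 (x axis) and H3K27ac (y axis) in the gene body with 50 kb on each side, with each protein-coding gene as a grey point and the 10 hedgehog genes in red. Gli2 and Boc stand at the upper left, with H3K27me3 at -39.0 and -20.8 kb and H3K27ac at 19.1 and 21.1 kb.

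Counted by region over the 10 wide windows, 61 of 120 mutant H3K27ac regions had no wild-type counterpart (50.8%, exact 95% interval 41.6 to 60.1), beside 29.6% of all mutant regions. Gli2, Gli3 and Boc supplied 17, 16 and 14 of the 61. Away from H3K4me3, an alternative chosen after the data were seen, 45 of 53 were new (84.9%), beside 50.3% of all mutant regions of that kind. Of 96 wild-type H3K27ac regions 10 had no mutant counterpart (10.4%, 5.11 to 18.3), beside 19.4% of all, and 6 of these 10 were at Shh. For H3K27me3, 60 of 120 wild-type regions had no mutant counterpart (50%, 40.7 to 59.3), beside 15.7% of all, and 27 of 96 mutant regions were new (28.1%, 19.4 to 38.2), beside 46.6%. Without Gli2 and Boc, likewise chosen later, the H3K27me3 share was 18 of 70, or 25.7%. New H3K4me1 regions made up 38.5% (31.7 to 45.6), beside 23.8% of all, and Gli3 held 29 of the 77. New H3K4me3 regions made up 29.9% (19.97 to 41.4), beside 28.1% of all. These intervals cover counting error only, and regions of 1 gene share their locus and are not independent.

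At the 18 NKX2-1 peaks, H3K27ac was present in both genotypes at 9, in the mutant only at 3, in neither at 6 and in wild type only at 0. Of all 5683 NKX2-1 peaks, 63.0% had H3K27ac in both genotypes, 2.16% in the mutant only, 27.5% in neither and 7.41% in wild type only. H3K4me1 was present in both genotypes at 15 of the 18, beside 60.9% of all, and H3K4me3 in the mutant only at 3, beside 3.61%. H3K27me3 lay over 4 in both genotypes, beside 7.46% of all, and over 1 in wild type only, beside 0.985%. The 3 peaks with H3K27ac in the mutant only belonged to Gas1, Boc and the Fancc promoter beside Ptch1.

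The rest of the pathway was read from a list of 41 genes, of which 39 matched the annotation (no match for Disp1 and Foxf1). It holds 8 genes of ligands and their release, 3 of reception, 20 of transduction and the cilium, and 10 targets. H3K27ac in the TSS window was called higher at 1 of the 32 genes tested and lower at 0. The 1 gene was Nkx6-2, a homeodomain gene of the target class, with 0.409 kb in wild type against 1.96 kb in the mutant. H3K27me3 was called higher at 1 of 17, Gpc3, a cell-surface proteoglycan that binds the ligand, from 2.65 to 4.10 kb, and lower at 0. Both shares are near or under the background given above. H3K4me3 was called higher at 2 of 38, Foxa2 and Nkx2-2, and H3K4me1 at 1 of 37, Cul3; these 3 names were chosen after their values were seen. All 19 tested genes of transduction and the cilium were without an H3K27ac call, and their class summed to 54.6 kb in wild type against 55.0 kb in the mutant.

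The genes most like 3 of the members were found by the distance over 8 values, the log2 of each mark's covered length in the TSS window plus 0.5 kb in both genotypes. Nearest to Shh were Klf9 (distance 1.54), Prrx1 (1.61) and Pitx3 (1.76). Klf9 held 3.07 and 1.67 kb of H3K27ac in wild type against mutant, and Prrx1 3.50 and 2.13 kb, both lower in the mutant, whereas Pitx3 held 1.75 and 1.79 kb. Nearest to Ptch1 were Trim2 (0.69), Ank3 (0.74) and Pde4d (0.82), each with 17.7 to 28.3 kb of H3K27ac. Nearest to Gli2 were Zfhx3 (1.48), Tmem132c (1.71) and Tle4 (1.86). Tle4 held 3.47 and 10.2 kb of H3K27ac and 15.5 and 8.50 kb of H3K27me3. Zfhx3 held 8.14 and 13.0 kb of H3K27ac and 13.0 and 6.09 kb of H3K27me3. Both went in the directions seen at Gli2, with smaller falls of H3K27me3. The values compared here entered the distance, so likeness in them follows in part from the choice of genes.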

How the data were processed

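Groups follow the antibody and genotype of the labels. The submitters' processing notes name BWA 0.6.2 for alignment to mm9, MACS2 2.1.0, CASAVA 1.8.2 and bcl2fastq 1.8.4. The files' headers give MACS 2.1.0.20140616 with a p-value limit of 1e-05, no local lambda, no model, an extension of 250 bases, at most 1 tag at a position and splitting of summits. A single input served all marks of a genotype except H3K4me3, which had another, per the file headers. The deposited columns are pileup (signal), −log10 p-value, −log10 q-value (unused, since the headers say that q was not computed) and the authors' fold, a ratio of ChIP to control. Folds describe regions within a list.

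Summits sharing both ends were merged into 1 region. Covered bases and overlaps (1 base or more) were counted in Python 3.11.15 with pandas 2.3.3 and numpy 2.4.6, intervals (Clopper-Pearson, 95%) came from scipy 1.17.1 and figures from matplotlib 3.10.9, and lengths were checked against bedtools 2.31.1 on simulated data. Genes and sequences came from GENCODE vM1 and its NCBIM37 genome, in which no region passed a chromosome's end. Input and IgG libraries were not analysed here, and 1 promoter sequence is not reported here. The members, lists, windows and alternatives were chosen with earlier results of these data known. The genes named are all 10 members, the 3 genes nearest in pattern to Shh, Ptch1 and Gli2, listed pathway genes called in H3K27ac or H3K27me3, markers of tissues from fixed lists, neighbours at factor peaks, and 3 pathway genes chosen after their values were seen. Alternatives changed the limit on −log10 p, covered length, windows, call rule, gaps and overlap.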

Additional observations from a re-analysis of the deposited data

How the results depend on the processing

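No value called in the TSS window reversed its direction under any alternative run. H3K27me3 at Cdon, not called there (1.05 kb more in the mutant), was called higher at −log10 p of at least 10 (2.22 kb more) and lower in the gene body window (-4.13 kb), and at Gas1 it was called lower with 5 kb around the TSSs. Among values of single genes 148 stayed within 1.5 times and 92 did not. The H3K27ac calls at Gli2, Gli3, Boc, Gas1 and Shh and the H3K27me3 calls at Gli2, Boc and Hhip held under all 8 alternatives; Cdon's H3K27ac call held under 4 of 8 and its H3K4me1 call under 3. The H3K27me3 calls at Ptch1 and Gli3 and the H3K4me3 call at Gas1 held under 5, and the H3K4me1 and H3K4me3 calls at Boc under 6. In 80 of 105 alternatives, counts stayed within 1.5 times and shares within the exact 95% interval of the reported share; the other 25 follow, and the cause was not tested. With the weakest mutant regions dropped until both genotypes covered equal length, H3K4me3 was higher at 0 genes and H3K27me3 at 1 (Hhip). Gained shares became 37.1% (H3K27ac), 30.5% (H3K4me1), 0% (H3K4me3) and 13.3% (H3K27me3), and lost shares 14.1% (H3K4me3) and 74.2% (H3K27me3). Only mutant regions were dropped (H3K27me3 from 28077 to 10933), so lost shares could only stay or rise. Shares over all regions were not computed for the trimmed lists, nor for the other limits on −log10 p and overlap. The shares of all regions given above come from the full lists and are not a background for these. With 5 kb around the TSSs, H3K4me1 and H3K4me3 were higher at 0 genes; in the gene body window H3K4me3 was higher at 4; at 2-fold, H3K4me1 at 0 and H3K4me3 at 1. At −log10 p of at least 10, 4.41% of H3K27ac and 0% of H3K4me3 regions were lost. With an overlap of 50%, gained shares were 61.7% (H3K27ac) and 39.6% (H3K27me3) and H3K27me3 lost 60.8%; with regions within 1 kb counted as shared, H3K4me1 lost 3.87% and gained 24.5%, and H3K27me3 gained 17.7%. Chosen after the data were seen, H3K27ac gained away from H3K4me3 was 84.9% (50.3% of all such regions) and H3K27me3 lost without Gli2 and Boc 25.7%. The TSS window held 7 NKX2-1 and 0 LHX6 peaks. No paired analysis was possible because each group has 1 library. Depth limits what is called: signal below the authors' limit is not listed, and a region lost or gained may have crossed that limit by little.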

Other observations

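Beyond the windows of the report, the stretch of 669 kb on chromosome 5 (28843642 to 29512531) from the Shh window towards Rnf32 was examined after its values were seen. It holds long noncoding transcripts and 1 predicted coding gene model, Gm10290. Wild type had 20 H3K27ac regions over 16.1 kb there and the mutant 8 over 4.91 kb, and 15 of the 20 had no mutant counterpart. Of the 17 without H3K4me3 in either genotype, 13 (76.5%) had none, beside 40.3% of all wild-type H3K27ac regions of that kind. H3K4me1 had 21 regions in both genotypes, over 17.4 and 13.1 kb, and 18 of the wild-type 21 overlapped a mutant region. Of the 15 lost H3K27ac regions, 10 lay under H3K4me1 in both genotypes. The stretch held 1 NKX2-1 peak, 495 kb upstream of the Shh TSS with a fold of 6.61, and 1 LHX6 peak, 564 kb upstream with a fold of 5.40. H3K27ac lay over both peaks in wild type only, and H3K4me1 in both genotypes. H3K4me3 lay over the LHX6 peak in both genotypes, and over the NKX2-1 peak in neither. Their 200 bases around the summit on the plus strand of mm9 are shown as the only factor peaks of the stretch, and neither holds an NK2, LIM or Gli core.
NKX2-1 peak upstream of Shh, chr5:29288455-29288654: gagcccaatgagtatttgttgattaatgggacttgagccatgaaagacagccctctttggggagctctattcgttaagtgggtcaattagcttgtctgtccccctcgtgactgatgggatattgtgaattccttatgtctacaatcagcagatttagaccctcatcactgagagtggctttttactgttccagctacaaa
LHX6 peak upstream of Shh, chr5:29357051-29357250: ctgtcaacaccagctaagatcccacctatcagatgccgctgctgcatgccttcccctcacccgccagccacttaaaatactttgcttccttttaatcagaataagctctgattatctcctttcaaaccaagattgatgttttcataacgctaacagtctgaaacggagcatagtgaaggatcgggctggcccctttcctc
A LIM core stood in 41.5% of all 1651 LHX6 summit windows and an NK2 core in 8.42%. Whether these regions act on Shh was not tested.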
